A study of Mus musculus with 57 samples.

Results

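SOX2 only sites are places that GATA6 reached within 2 h of induction and that already held SOX2, but no called NANOG peak, before induction. They were chosen by rule from CUT&RUN peak lists. Overlapping peaks of both GATA6 2 h lists were merged into 44776 regions that hold a peak of each list, and a region was kept if it overlapped a peak in both SOX2 0 h lists and none in either NANOG 0 h list. This left 3899 sites, 8.71% of the regions. They are set beside the 4968 regions with both NANOG and SOX2 in both 0 h lists (NANOG and SOX2 sites) and the 25853 regions with no 0 h peak of either protein in any list (unoccupied sites).

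CUT&RUN uses an antibody to direct a nuclease to a chromatin protein, and the released fragments are sequenced. The cells were mouse embryonic stem cells with a GATA6 transgene that doxycycline switches on, and each group has 2 replicate lists. Of the 30 lists, 10 are of GATA6 (0, 2, 4, 8 and 48 h after induction). SOX2 and NANOG were each profiled at the first 4 of these times. SOX17 and GATA4 lists come from 24 h. Cells at 0 h were in 2i medium with LIF and induced cells were in serum medium with LIF and doxycycline, so a difference from 0 h holds both the medium and GATA6. Doxycycline was taken away before the 24 and 48 h samples. The cells are a culture model of a single line, with the transgene under a TET-responsive element, and the labels do not say whether replicates came from separate cultures. GATA6 times follow the sample named in each peak list, and the values by the time on the record are given with the GATA6 results.

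SOX2 and NANOG belong to the network that keeps the epiblast (Epi) state. SOX2 often binds with the POU factor OCT4 at composite SOX-POU elements. GATA6 starts the primitive endoderm (PrE) programme, and GATA4 and SOX17 are PrE factors that act after it. SOX17 is of the same protein family as SOX2 and recognises a like core sequence, and its pairing with OCT4 is known at a compressed form of the composite element.

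To show what these sites look like, the GATA6 2 h summit and 50 bases on each side are printed for the strongest site of 6 readouts (GRCm38, plus strand), each named by the nearest coding transcription start site (TSS). They are the strongest in GATA6 at 2 h (Pomc), in SOX2 at 0 h and also at 8 h (Mast3), in NANOG at 2 h (Edem1), in GATA6 at 48 h (Flt1), in GATA4 (Axin2) and in SOX17 (Celsr3). Capitals would mark a match to any of the 9 motifs searched, and none of the 6 windows holds one.
Pomc, chr12:3890264-3890364: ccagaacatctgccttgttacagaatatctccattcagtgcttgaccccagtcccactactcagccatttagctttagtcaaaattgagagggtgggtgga
Mast3, chr8:70792626-70792726: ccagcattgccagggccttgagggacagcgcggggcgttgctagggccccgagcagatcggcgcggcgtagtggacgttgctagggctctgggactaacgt
Edem1, chr6:108869398-108869498: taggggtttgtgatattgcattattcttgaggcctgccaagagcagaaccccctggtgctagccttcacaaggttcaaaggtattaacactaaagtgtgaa
Flt1, chr5:147761337-147761437: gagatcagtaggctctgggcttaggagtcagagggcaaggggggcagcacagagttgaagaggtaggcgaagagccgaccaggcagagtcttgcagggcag
Axin2, chr11:108910754-108910854: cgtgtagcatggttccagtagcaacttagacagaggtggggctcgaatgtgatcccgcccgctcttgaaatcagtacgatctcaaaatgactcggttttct
Celsr3, chr9:108824952-108825052: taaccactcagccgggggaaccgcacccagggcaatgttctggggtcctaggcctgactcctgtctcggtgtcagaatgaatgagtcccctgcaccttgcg

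The GATA motif (A or T, then GATA, then A or G) was found farther from the summit at 4 of these 6 sites. The nearest match lay 99 bp from the GATA6 summit at the Pomc site, 81 bp at the Edem1 site, 65 bp at the Flt1 site and 159 bp at the Axin2 site. The Mast3 and Celsr3 sites held no match anywhere in the region. The 41 bases around each nearest match follow, with the match in capitals on either strand.
Pomc, chr12:3890393-3890433: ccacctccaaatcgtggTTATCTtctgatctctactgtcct
Edem1, chr6:108869347-108869387: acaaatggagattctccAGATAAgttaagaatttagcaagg
Flt1, chr5:147761432-147761472: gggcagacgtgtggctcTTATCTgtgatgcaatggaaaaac
Axin2, chr11:108910625-108910665: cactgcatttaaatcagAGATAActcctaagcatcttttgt

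The values that chose the sites are given as a description only. At SOX2 only sites the median SOX2 0 h fold over the caller's local background was 6.5 and 6.31 in replicates 1 and 2, against 11.1 and 11.6 at NANOG and SOX2 sites. The median GATA6 2 h fold was 7.29 and 6.32, against 12.4 and 10.3 at NANOG and SOX2 sites and 6.84 and 6.14 at unoccupied sites. SOX2 only sites thus held weaker SOX2 peaks than sites with NANOG, and GATA6 peaks close in height to those of unoccupied sites. Their regions had a median width of 744 bp, against 1011 bp and 601 bp.

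Sites near the margins of the rule were many. In 4354 further regions SOX2 had a peak in only 1 of the 2 lists and NANOG none, with a median −log10 q of 3.84 for that peak. The SOX2 only sites had a median of 5.01 for the lower of their 2 peaks, the lowest was 1.32, and 232 sites were under 2. On the NANOG side, 2623 regions had SOX2 in both lists and NANOG in only 1, and in 2091 of these it was replicate 2. Their median NANOG −log10 q was 4.90, against 7.07 for the lower peak of NANOG and SOX2 sites. The absence of NANOG means that no peak was called at this depth, and 92 of the sites had a NANOG 0 h peak within 500 bp.

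SOX2 only sites lay more often at promoters than the other classes. Of the 3899 GATA6 summits, 1039 (26.6%) lay within 1 kb of a coding TSS, a distance called a promoter here. At NANOG and SOX2 sites the share was 6.22%, at unoccupied sites 5.56% and over all regions 9.49%. Introns held 30.0% of the SOX2 only sites and intergenic DNA 39.6%, while UTRs held 2.08% and coding exons 0.769%. The median distance to a coding TSS was 13.2 kb, against 38.2 kb and 31.5 kb. Each of these shares is a single value for the merged regions and was not tested.

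Base composition moved with the place. The window of 100 bp on each side of the GATA6 summit had a median GC content of 51.7% at SOX2 only sites, 45.8% at NANOG and SOX2 sites and 46.8% at unoccupied sites. The mean number of CpG dinucleotides was 5.67, 2.4 and 2.69. At the promoters among the SOX2 only sites the GC content was 59.2% and the CpG number 11.7. Away from promoters both were still higher than in the other classes away from promoters, with 50.2% against 45.3% and 46.3%, and 3.47 CpG against 1.97 and 2.31.

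**Figure D1:**
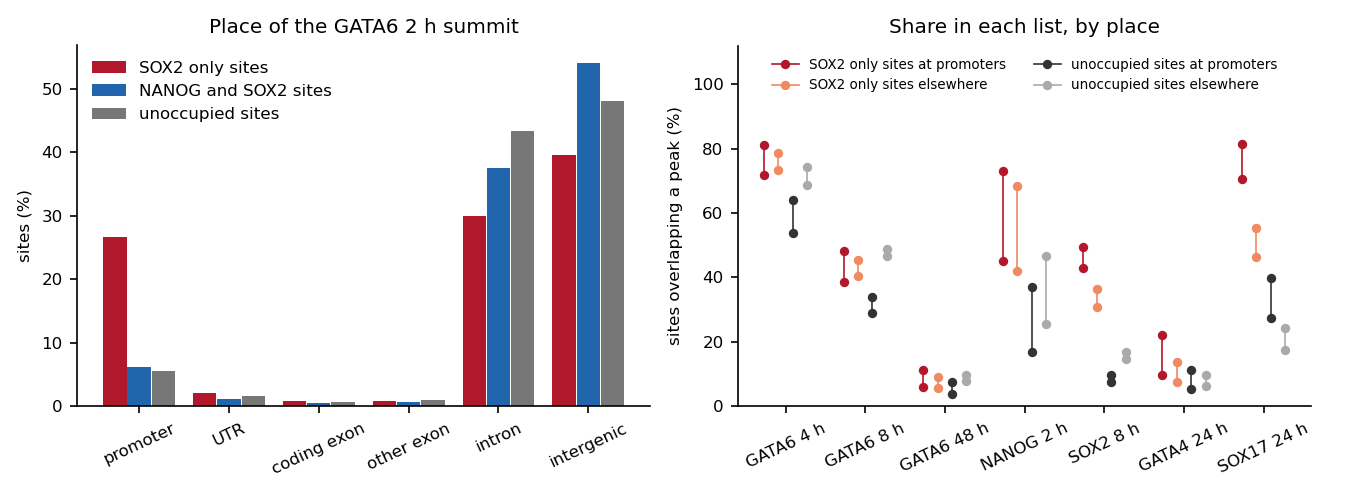
Left, percent of sites of each class whose GATA6 2 h summit lies in each kind of place. Right, percent of sites that overlap a peak in each of both lists (2 joined points) for SOX2 only and unoccupied sites at promoters and elsewhere. A reader should see the promoter share of 26.6% for SOX2 only sites and the SOX17 values at their promoters, 70.6% and 81.4%, against 27.4% and 39.7% at unoccupied promoters. NANOG and SOX2 sites are not drawn on the right, and their promoters had 85.8% and 89.3%.

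SOX2 only sites had fewer GATA motifs than unoccupied sites. Within 100 bp of the GATA6 2 h summit, 34.9% of them held a match, against 64.2% of unoccupied sites, 39.9% of NANOG and SOX2 sites and 54.1% of all regions. The share 5 kb downstream of the same summits was 31%, in windows with a median GC content of 45.3% against 51.7% at the summits. At promoters 22.3% held a match and elsewhere 39.5%, against 65.5% of unoccupied sites elsewhere. When the unoccupied sites were weighted to the GC content of the SOX2 only sites in 5 bins, a comparison chosen after the data were seen, their share was 52.9%. NANOG and SOX2 sites weighted in this way had 31.5%. At SOX2 only sites the share went from 52.7% in the lowest of these bins to 13.3% in the highest.

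GATA matches were rarer under the summit than beside it. At SOX2 only sites there were 1.41 matches per kb within 25 bp of the summit, 2.89 per kb at 75 to 100 bp and 1.42 per kb at 300 to 325 bp. At unoccupied sites the densities at these distances were 3.84, 8.57 and 3.59 per kb. A window of 200 bp on each side, chosen after this was seen, held a match at 57.6% of SOX2 only sites, 66.2% of NANOG and SOX2 sites and 86.7% of unoccupied sites, with 51.4% at 5 kb from SOX2 only sites. The order of the 3 classes was the same in both windows when GC content was not weighted. With the GC weighting within 100 bp, NANOG and SOX2 sites were below SOX2 only sites, 31.5% against 34.9%.

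The SOX core (C, then A or T, then TTGT) was found within 100 bp of the SOX2 0 h summit at 36.6% of SOX2 only sites and 49.3% of NANOG and SOX2 sites. At the promoters among the SOX2 only sites it was 20.6%, and elsewhere 42.4%. Around the GATA6 summit the share was 32.7%, against 45.6% at NANOG and SOX2 sites, 32.3% at unoccupied sites, 34.0% of all regions and 26.4% at 5 kb. Weighted to the GC content of the SOX2 only sites in 5 bins, it was 34.8% at NANOG and SOX2 sites and 25.8% at unoccupied sites. The canonical SOX-POU composite core, TTGTNATGC, stood at 0.872% of SOX2 only sites, 4.35% of NANOG and SOX2 sites, 0.778% of unoccupied sites and 1.34% of all regions. Around the SOX2 summit it was 1.59% against 4.55%. The composite core was thus rarer at SOX2 sites without NANOG than at those with it.

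The compressed composite core TTGTATGC, which is the canonical form without the middle base, was found at 0.282% of SOX2 only sites and 0.436% of all regions. AP-1 (TGANTCA) was found at 8.06% of SOX2 only sites, 17.8% of unoccupied sites and 14.6% of all regions. The AAGGTCA core of NR5A2 and ESRRB was found at 6.59%, against 10.6% of NANOG and SOX2 sites and 7.77% of all regions. The octamer ATGCAAAT was found at 3.03% against 2.92% of all regions, the TEAD core GGAATG at 13.9% against 15.2% and the KLF core GGGTGTG at 9.24% against 9.16%. Both strands were searched, a match is no proof of binding, and 45.0% of SOX2 only sites held neither a GATA nor a SOX core match.

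**Figure D2:**
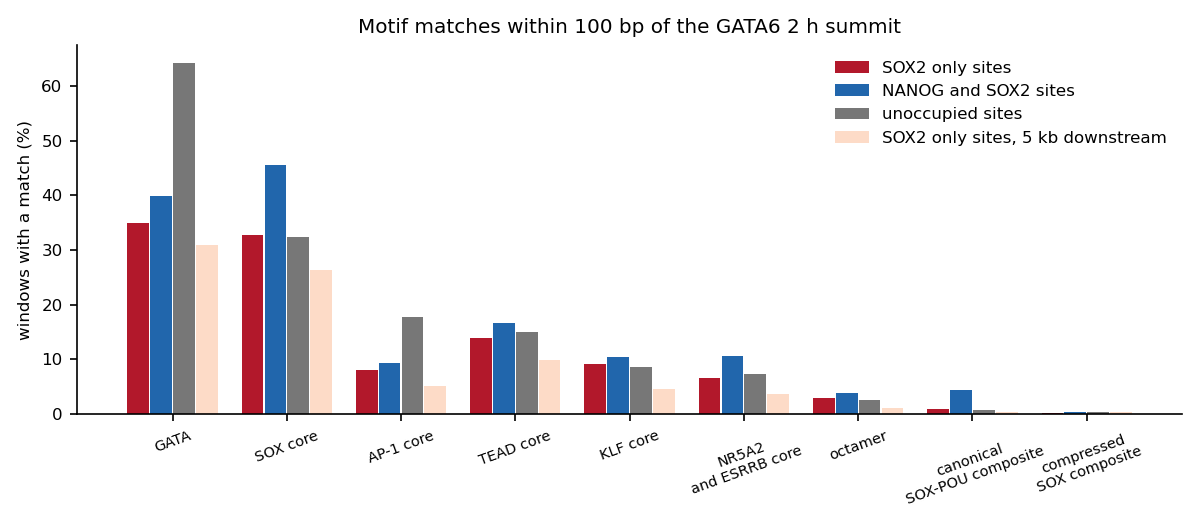
Percent of windows of 100 bp on each side of the GATA6 2 h summit with a match to each motif in the 3 classes, and in windows 5 kb downstream of the SOX2 only sites. GATA matches were found at 34.9% of SOX2 only sites and 64.2% of unoccupied sites. The windows at 5 kb had 31%, at a lower median GC content (45.3% against 51.7%).

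The distance between GATA6 and SOX2 summits is a description, since the rule asked that the peaks overlap 1 region and so largely fixes it. The GATA6 2 h summit lay a median of 105 bp from the SOX2 0 h summit (quartiles 42 and 235 bp), and 48.4% of the pairs were within 100 bp. The replicates give the resolution of this measure, since the 2 GATA6 summits of a site were a median of 75 bp apart and the 2 SOX2 summits 88 bp. At 9.69% of the sites the GATA6 and SOX2 summits were over 500 bp apart, against 3.21% for the 2 GATA6 summits and 4.59% for the 2 SOX2 summits. The third quartile was 235 bp between the proteins, 164 bp for GATA6 and 179 bp for SOX2.

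**Figure D3:**
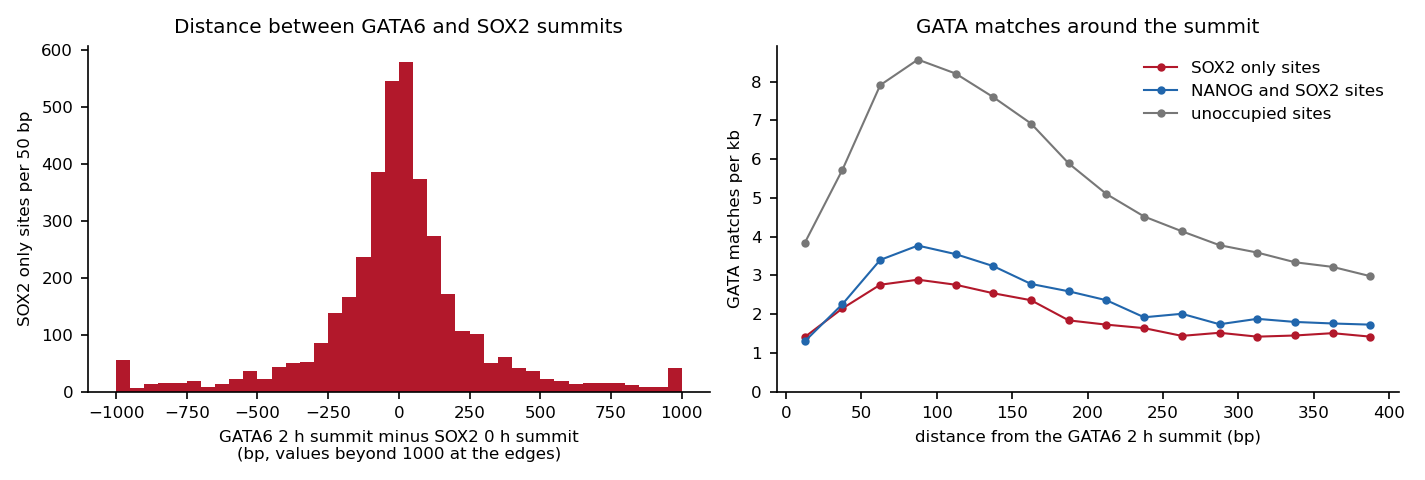
Left, number of SOX2 only sites per 50 bp of distance from the SOX2 0 h summit to the GATA6 2 h summit. Right, GATA matches per kb against the distance from the GATA6 2 h summit (both sides, bins of 25 bp) in the 3 classes. The density at SOX2 only sites was highest, 2.89 per kb, at 75 to 100 bp.

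GATA6 was then followed over time. It overlapped 72.8% and 79.4% of the SOX2 only sites in replicates 1 and 2 at 4 h, 39.9% and 46.2% at 8 h, and 5.80% and 9.59% at 48 h. No time point overlapped another. From 4 to 48 h the share fell by 68.4 percentage points (exact permutation test for a trend over 6 lists, two-sided p = 0.0222, the smallest possible, adjusted over 7 tests p = 0.0437). The lists themselves shortened, from 47894 and 54281 peaks at 4 h to 5933 and 9767 at 48 h. With 5933 peaks in every list the shares were 9.16% and 9.34% at 4 h, 7.44% and 7.57% at 8 h and 5.80% and 6.31% at 48 h, with the same p. By the time on the record the lists named 48, 4 and 8 h belong to 4, 8 and 48 h, and the trend from 4 to 48 h is then 35.4 points (exact permutation p = 0.578).

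Sites with GATA6 in both lists numbered 2588 at 4 h (66.4%), 1295 at 8 h (33.2%) and 163 at 48 h (4.18%). Over all 44776 regions these shares were 63.8%, 38% and 5.71%. A GATA6 peak in every list from 4 to 48 h was found at 149 sites (3.82%), and in none of them at 514 (13.2%), against 5.18% and 16.4% of all regions. GATA6 at 0 h overlapped 1 site in both lists, from libraries whose estimated depth was low but uncertain.

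The difference in GATA6 between SOX2 only and unoccupied sites did not pass the test. The mean difference was 0.204 percentage points over the 6 lists (exact sign-flip test, two-sided p = 1, where the smallest possible is 0.0312). It was 5.09 and 5.67 points at 4 h, −5.92 and −1.72 at 8 h and −1.87 and −0.0276 at 48 h. The call depended on the lists, since with 5933 peaks in each the mean was −3.79 and with GATA6 2 h regions of either list 10.4 (exact sign-flip p = 0.0312 for each), in opposite directions. Against NANOG and SOX2 sites the share was lower in 6 of 6 lists, with a mean difference of −5.70 points (exact sign-flip p = 0.0312, the smallest possible, adjusted p = 0.0437). The call was lost without NANOG 0 h replicate 2 (−4.14, exact sign-flip p = 0.0625) and without promoters (−4.66, exact sign-flip p = 0.0625). The direction turned when sites of like GATA6 2 h fold were compared. Within 5 bins of that fold the difference was 9.13 points (exact sign-flip p = 0.0312), with 12.8 and 16.8 points at 8 h, with a higher share at SOX2 only sites in 6 of 6 lists.

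The height of the first GATA6 peak went with what followed. In the lowest quartile group of SOX2 only sites by GATA6 2 h fold, 11.1% and 17.9% had GATA6 at 8 h, and in the highest quartile group 80.6% and 83.2%. At 48 h these shares were 1.03% and 2.36% against 15.4% and 21.4%. NANOG at 2 h was found at 50.6% and 24.4% of the lowest quartile group and 92.2% and 69.3% of the highest, and SOX2 at 8 h at 27.5% and 21.7% against 60.8% and 55.6%. SOX17 varied less, from 46.1% and 54.4% to 59.8% and 68.4%. The highest quartile group also had the widest regions, with a median of 1123 bp against 523 bp, and the fewest promoters, 14.3% against 33.5%. The part of region width in these values was not tested.

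**Figure D4:**
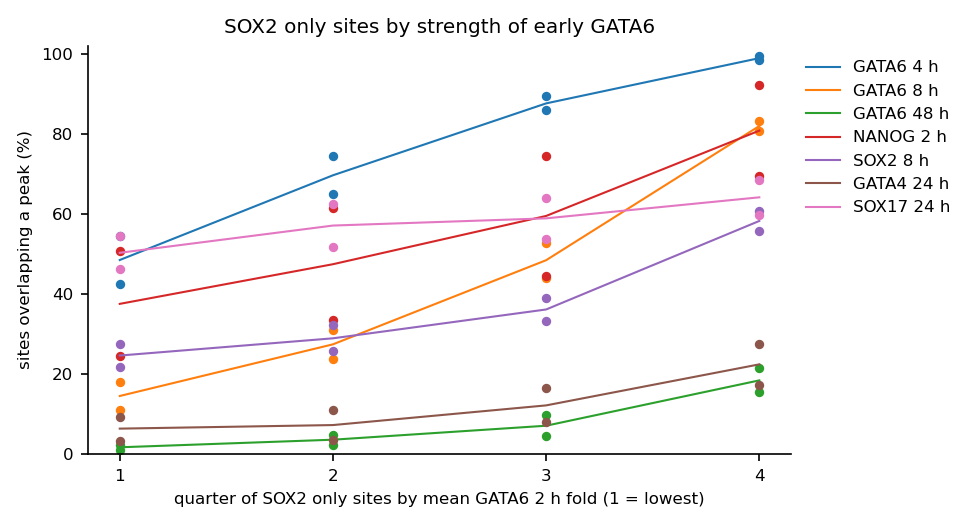
Percent of SOX2 only sites that overlap a peak, by quartile group of the mean GATA6 2 h fold (1 is the lowest). Points are the 2 lists and lines their mean. GATA6 at 8 h goes from 11.1% and 17.9% in the lowest quartile group to 80.6% and 83.2% in the highest, while SOX17 goes from 46.1% and 54.4% to 59.8% and 68.4%.

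Sites with a GATA motif kept GATA6 more often. GATA6 at 8 h was found at 50.0% and 55.8% of SOX2 only sites with a match within 100 bp of the summit, and at 34.4% and 41.1% of those without. At 48 h the shares were 8.67% and 13.8% against 4.26% and 7.33%. Read from the other side, a match within 200 bp was found at 76.3% of the sites with GATA6 in both 8 h lists and 46.5% of those with GATA6 in neither. The sites with a match also had higher GATA6 2 h folds, with medians of 8.79 and 7.58 against 6.77 and 5.81, and the part of that difference was not tested.

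By the rule NANOG had no called peak at these sites before induction, and many had one at 2 h. The 0 h lists were shorter, with 10693 and 16180 peaks against 52285 and 26742 at 2 h, and the rise was not tested. NANOG overlapped 69.7% and 42.9% of the sites at 2 h, 18.8% and 19.1% at 4 h and 3.00% and 2.28% at 8 h. The lists of the 3 times did not overlap. The share fell by 53.6 points from 2 to 8 h (exact permutation trend p = 0.0222, the smallest possible, adjusted p = 0.0437). Both lists agreed on 1461 sites at 2 h (37.5%), 342 at 4 h (8.77%) and 21 at 8 h (0.539%). Over all regions, which include sites that held NANOG from the start, these shares were 36.7%, 15.1% and 1.07%. No NANOG peak appeared in any list after induction at 869 sites (22.3%), against 32.7% of all regions and 45.7% of unoccupied sites.

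These peaks were of ordinary height. The median NANOG 2 h fold of the sites with a peak was 5.83 and 5.12, against 5.37 and 5.40 for all peaks of the 2 lists and 12.1 and 8.55 at NANOG and SOX2 sites. The NANOG lists held 52285 and 26742 peaks at 2 h and 5510 and 2255 at 8 h. With the strongest 2255 peaks of each list, NANOG overlapped 1.18% and 1.44% of the sites at 2 h and 1.62% and 2.28% at 8 h, so the change over time was then 0.641 points (exact permutation p = 0.0667). The fall over time was thus not seen with lists of equal length.

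Against unoccupied sites, which also lacked NANOG at 0 h, NANOG was found more often at SOX2 only sites in 6 of 6 lists. The differences were 23.4 and 17.9 points at 2 h, 2.54 and 3.5 at 4 h and 0.912 and 0.940 at 8 h, with a mean of 8.21 (exact sign-flip p = 0.0312, the smallest possible, adjusted p = 0.0437). Within 5 bins of GATA6 2 h fold it was 6.86 points (exact sign-flip p = 0.0312). When weaker peaks (−log10 q under 5) were left out it was 6.57 (exact sign-flip p = 0.156), and with 2255 peaks per list −0.169 (exact sign-flip p = 0.719).

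SOX2 stayed at many of its sites. It overlapped 54.4% and 79.1% of them at 2 h, 83.2% and 57.3% at 4 h and 39.8% and 34.1% at 8 h. Both 8 h values lay under all others, while 2 and 4 h overlapped widely. The difference of −29.8 points between 8 and 2 h did not pass the test for a trend (exact permutation p = 0.333, adjusted p = 0.389). The higher list of each early time came from the deeper library, with a background coverage of 0.693 against 0.447 fragments per base at 2 h and of 0.514 against 0.409 at 4 h. At 8 h the coverage was 0.290 and 0.436, and the deeper list had the lower share. With 11540 peaks in every list the shares were 29.4% and 29.0% at 2 h, 34.5% and 31.6% at 4 h and 34.2% and 34.1% at 8 h.

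Sites with SOX2 in both lists numbered 1941 at 2 h (49.8%), 2101 at 4 h (53.9%) and 922 at 8 h (23.6%), against 33.3%, 35.6% and 14.9% of all regions. SOX2 had a peak in every list from 2 to 8 h at 680 sites (17.4%) and in none at 214 (5.49%). Over all regions these shares were 10.5% and 25%, and at NANOG and SOX2 sites 36.3% and 1.43%. SOX2 was found less often than at NANOG and SOX2 sites in 6 of 6 lists, by a mean of −16.3 points (exact sign-flip p = 0.0312, the smallest possible, adjusted p = 0.0437). Within 5 bins of GATA6 2 h fold the mean was −4.22 (exact sign-flip p = 0.406). In those bins the difference was −20.5 and −12.4 points at 2 h and 8.01 and 4.28 points at 8 h. The highest quartile group of SOX2 only sites by SOX2 0 h fold had median folds of 10.2 and 9.98. There SOX2 was found at 74.4% and 91.3% at 2 h, 92.8% and 75.5% at 4 h and 55.2% and 50.2% at 8 h. NANOG and SOX2 sites had median folds of 11.1 and 11.6. Their shares were 85.3% and 95.7% at 2 h, 90.8% and 77.8% at 4 h and 49% and 47.2% at 8 h. The part of SOX2 0 h fold in the difference was not tested.

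The sites that still held SOX2 at 8 h were also those with more of the other proteins. GATA6 at 8 h was found at 68.3% and 75.5% of the 922 sites with SOX2 in both 8 h lists, and at 23.4% and 28.7% of the 1939 sites with SOX2 in neither. At 48 h the shares were 15.8% and 22.5% against 1.75% and 3.51%. The first set had higher GATA6 2 h folds, with medians of 10.0 and 8.38 against 6.5 and 5.68, and wider regions, 926 against 661 bp. The part of these in the difference was not tested.

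**Figure D5:**
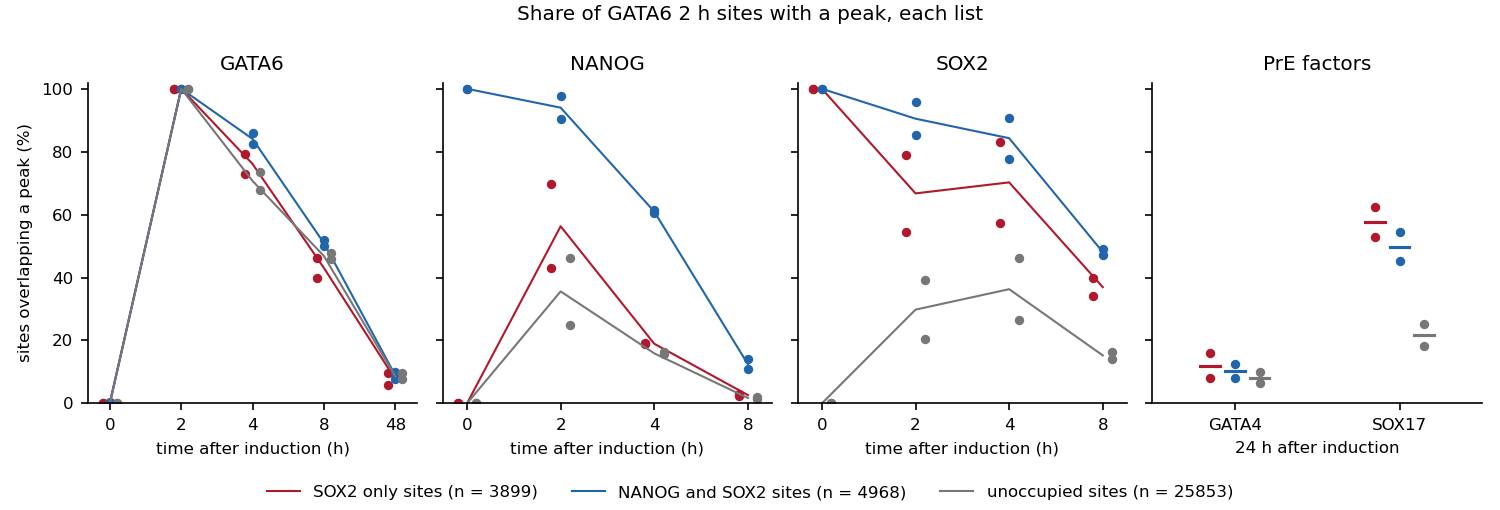
Percent of sites of each class that overlap a peak of GATA6, NANOG and SOX2 by time, and of GATA4 and SOX17 at 24 h. Points are single lists, lines and bars the means. Times are spaced evenly and not to scale, and GATA6 at 2 h and NANOG and SOX2 at 0 h are fixed at 0% or 100% by the choice of sites. SOX17 lies at 52.8% and 62.3% of SOX2 only sites and 18.1% and 25.2% of unoccupied sites.

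At 24 h SOX17 was found at 52.8% and 62.3% of SOX2 only sites. The shares were 45.3% and 54.4% at NANOG and SOX2 sites, 18.1% and 25.2% at unoccupied sites and 28.0% and 36% of all regions. Both values lay above both of unoccupied sites, and in each list SOX2 only sites had the highest share of the 3 classes, an order that did not hold at promoters alone. An exact sign-flip test over only 2 lists cannot pass the threshold, and these differences were not tested. Both lists agreed on 1893 sites (48.6%), against 25.1% of all regions. The median SOX17 fold of the sites with a peak was 6.32 and 6.54, above the medians of all SOX17 peaks, 5.33 and 4.76. The other classes were also above these, with 7.74 and 8.12 at NANOG and SOX2 sites and 5.8 and 5.58 at unoccupied sites.

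SOX17 went with promoters. It was found at 70.6% and 81.4% of the promoters among the SOX2 only sites and at 46.3% and 55.3% of the sites elsewhere. At unoccupied sites it was 27.4% and 39.7% at promoters and 17.5% and 24.3% elsewhere, so SOX2 only sites were higher in both places. At the promoters of NANOG and SOX2 sites it was higher still, 85.8% and 89.3%, while elsewhere in that class it was 42.6% and 52.1%. Over all regions the promoters had 54.2% and 65.4%. Of the sites with SOX17 in both lists 36.5% were at promoters, against 11.5% of the 1305 sites with SOX17 in neither. A SOX core match within 100 bp of the GATA6 summit was found at 33.9% and 31.3% of these sets, and the canonical SOX-POU core at 0.476% and 1.38%.

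SOX17 was found both where SOX2 had a called peak at 8 h and where it had none. Of the sites with SOX2 in both 8 h lists 78.3% and 85.1% had SOX17, and of those with SOX2 in neither 36.6% and 46.7%. Sites with SOX2 in neither 8 h list and SOX17 in both numbered 619 (15.9%). The share was 7% of NANOG and SOX2 sites, 7.26% of unoccupied sites and 9.34% of all regions. SOX17 in both lists with no GATA6 at 48 h was found at 1506 sites (38.6%, against 32.0%, 8.05% and 16.9%). The highest quartile group of SOX2 0 h fold had SOX17 at 62.6% and 70.9% of sites and the lowest at 46.3% and 57.7%.

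GATA4 was found at fewer sites. It overlapped 16.0% and 8.05% of SOX2 only sites at 24 h, 12.6% and 8.09% of NANOG and SOX2 sites and 9.87% and 6.38% of unoccupied sites. The ranges of the classes overlapped. Both lists agreed on 246 sites (6.31%, against 5.55% of all regions). Of these, 218 also held SOX17 in both lists (5.59% of SOX2 only sites, against 4.72% of all regions). GATA6 at 48 h, GATA4 and SOX17 each had a peak in both of their lists at 85 sites (2.18%, against 2.82% of all regions).

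Single sites show the range of these histories, and they were named by the rule as the strongest of each readout. The site 35.4 kb upstream of Flt1, a VEGF receptor gene (chr5:147760623-147762417, intergenic), had GATA6 folds of 42.0 and 51.3 at 2 h, 42.2 and 52.8 at 4 h, 30.7 and 36.2 at 8 h and 38.2 and 45.8 at 48 h. Its SOX2 fold was 4.85 and 5.05 at 0 h and 12.4 and 11.1 at 8 h, and SOX17 reached 66.1 and 57.1. The GATA6 fold thus stayed high there to 48 h, and the PrE factor SOX17 had a peak there at 24 h.

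The site 9.54 kb upstream of Axin2, a feedback inhibitor of WNT signalling (chr11:108909974-108912618, intergenic), had the highest GATA4 fold, 21.2 and 19.6. GATA6 had 47.7 and 48.4 at 2 h and 20.2 and 20.9 at 48 h, and NANOG had 18.1 and 14.8 at 2 h, 7.98 and 7.79 at 4 h and no peak at 8 h. SOX2 had 5.50 and 3.57 at 0 h, 25.8 and 14.4 at 4 h and 11.2 and 14.5 at 8 h. The next highest GATA4 fold, 18.2 and 20.1, was at a site 50.0 kb upstream of Il1b (chr2:129419331-129421816, intergenic), the gene of a cytokine. There GATA6 had 18.2 and 29.7 at 48 h and SOX17 33.7 and 46.8. After the Flt1 site, GATA6 at 48 h was highest 0.290 kb upstream of Tedc2 (chr17:24220512-24221808, promoter), with 26 and 30.5, against 45.1 and 36.9 at 2 h.

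The highest GATA6 2 h fold, 113 and 92.4, was 64.6 kb upstream of Pomc, the gene of a pituitary prohormone (chr12:3889446-3892421, in an intron). It had 24.0 and 24.4 at 48 h, NANOG of 22.2 and 19.3 at 2 h and SOX2 of 6.61 and 4.66 at 0 h. Peaks of SOX2 at 0 h and of GATA6 and NANOG at 2 h thus overlapped this region, and GATA6 still had a peak there at 48 h.

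Other sites were led by a SOX protein. The site in an intron 12.4 kb from the TSS of Mast3, a kinase gene (chr8:70792386-70793222), had SOX2 folds of 50.1 and 47.2 at 0 h, 26.2 and 47.6 at 2 h, 50.9 and 29.6 at 4 h and 38.5 and 40.5 at 8 h. GATA6 had 2.74 and 7.57 at 2 h and a peak in only 1 of the 6 later lists, at 5.34. The next highest SOX2 0 h fold, 34.4 and 38.1, was at a site 280 kb from the TSS of Epha7, an ephrin receptor gene (chr4:29092330-29093090, intergenic). SOX2 there had a peak in only 1 list at 2 h, of 4.14, and 1 at 8 h, of 3.88, and no other induced list held a peak apart from GATA6 at 2 h. The 2 strongest SOX2 sites thus had opposite courses. The site 1.32 kb upstream of Celsr3, a cadherin gene of planar polarity (chr9:108824926-108825269), had SOX17 at 106 and 97.4, SOX2 at 20.2 and 17.3 at 0 h and GATA6 at only 4.71 and 4.79 at 2 h. The site 1.12 kb downstream of the TSS of Fbxl19 (chr7:127744911-127746389, in an intron) had SOX17 at 62.1 and 82.0. Its GATA6 fold was 17.6 and 9.69 at 2 h, so the 2 strongest SOX17 sites both stood near a TSS but differed in GATA6.

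NANOG was highest at 2 h at a site 40.8 kb from the TSS of Edem1 (chr6:108869040-108869792, intergenic), where its fold was 31.5 and 14.9 at 2 h, 13.4 and 16.5 at 4 h and 5.46 in 1 list at 8 h. GATA6 there had 16.2 and 16.4 at 2 h and 13.1 and 10.9 at 8 h, and none at 48 h. A distal site 130 kb upstream of Krr1 (chr10:111841564-111843623) had SOX2 of 29.2 and 28.0 at 8 h, against 14.5 and 10.8 at 0 h, with SOX17 at 49.0 and 51.2. Both proteins thus had peaks there after induction, but at different times, SOX2 at 8 h and SOX17 at 24 h. The next highest NANOG 2 h fold was 324 kb upstream of Adgrl2 (chr3:149314061-149315455, intergenic), with 29.0 and 13.5, and NANOG still had 4.51 and 5.65 at 8 h.

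The sites were also grouped by nearest coding gene. Within 50 kb of a TSS lay 2904 of the 3899 sites, nearest to 2552 genes, of which 2263 had 1 site and 44 had 3 or more. In the list of PrE regulators and markers, 5 of 22 genes had 6 sites. These were 5.83% of the 103 GATA6 2 h regions nearest to the listed genes, close to the 8.71% over all regions. Lamc1, a laminin chain of the basement membrane, had 2, and Fst, Lama1, Pdgfra and Sparc had 1 each. The Lamc1 site with the higher GATA6 fold lay 0.454 kb upstream of the TSS (chr1:153332700-153334200), with GATA6 of 11 and 14.9 at 2 h, 7.94 and 8.57 at 8 h and none at 48 h, and SOX17 of 12.6 and 15.2. SOX17 was in both lists at 4 of the 6 sites and GATA6 at 48 h at 0 of them. Over all SOX2 only sites these shares were 48.6% and 4.18%, and over all regions 25.1% and 5.71%.

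Of the 30 pluripotency regulators and markers, 9 had 13 SOX2 only sites (6.70% of 194 regions), while 24 genes had 45 NANOG and SOX2 sites (23.2%). Over all regions these 2 classes made up 8.71% and 11.1%. Dppa3, Nanog, Prdm14 and Sox2 had 2 sites each. The Sox2 site named by the rule, 18.2 kb downstream of its TSS (chr3:34668225-34669580), had SOX2 folds of 6.29 and 4.38 at 0 h, peaks in all lists of 2 and 4 h and none at 8 h. Sall4, a zinc finger factor of stem cells, had 1 site 5.58 kb downstream of its TSS (chr2:168761923-168764119) where GATA6 had 23.9 and 17 at 2 h and 10.4 and 5.78 at 48 h and SOX17 36.2 and 39.7. Id1, Klf4, Lin28a and Nr5a2 had 1 site each. Over the 13 sites SOX17 was in both lists at 6 and SOX2 at 8 h at 3. Over all SOX2 only sites these shares were 48.6% and 23.6%, and over all regions 25.1% and 14.9%.

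In the FGF and ERK pathway 8 of 15 genes had 10 sites (10.5% of 95 regions, against 8.71% over all regions). The negative feedback regulators Dusp6 and Spry1 had 2 sites each and Spry2 and Dusp4 1 each, and the others were nearest to Etv4, Etv5, Fgf4 and Fgfr1. SOX17 was in both lists at 8 of the 10 and GATA6 at 48 h at 0. Over all SOX2 only sites these shares were 48.6% and 4.18%, and over all regions 25.1% and 5.71%. The Dusp6 site 1.38 kb upstream of the TSS (chr10:99261225-99262272) had SOX2 of 12.0 and 5.04 at 0 h and 7.75 and 4.55 at 8 h and SOX17 of 7.92 and 8.41. In the WNT pathway 9 of 18 genes had 1 site each (9.78% of 92 regions, against 8.71% over all regions). Among them were the inhibitor Dkk1, the receptor Fzd7 and the factors Lef1, Tcf7l1 and Tcf7l2, beside Axin2. SOX17 was in both lists at 7 of these 9 and NANOG at 2 h at 7. NANOG at 2 h was in both lists at 37.5% of all SOX2 only sites and 36.7% of all regions. Of the 18 neural SOX2 targets and regulators, 2 had 1 site each (3.85% of 52 regions, against 8.71% over all regions), among them Olig2. These counts are descriptions of small numbers, with no test, and a nearest gene need not be the gene a site acts on.

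The depth of the lists, given as the caller's background in fragments per base, was 0.928 to 1.34 for induced GATA6, 0.865 to 1.31 for NANOG, 0.290 to 0.693 for SOX2 and 1.23 and 1.55 for SOX17. For the GATA6 0 h libraries the estimates were 0.288 and 0.339, but they rest on few matched values. The depth at which GATA6 was lacking before induction is thus uncertain and may be low. Counting error and peak calling both limit a share, and a weak peak is more easily missed in a shallow list.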

How the data were processed

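CUT&RUN peak lists of 30 libraries in 15 groups of 2 were analysed. The other 27 of the 57 samples (histone marks, control antibody, blastocysts) were not analysed here. The authors aligned reads to mm10 (GRCm38) with Bowtie2, filtered them with SAMtools and called narrow peaks per library with MACS against a control library of rabbit anti-rabbit antibody. Each deposited list gives a fold over local background (a ratio), the −log10 p and −log10 q of the summit, and an integer score, which was not used for tests. Every deposited peak had −log10 q of at least 1.3, so weaker signal is not seen.

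Peaks were assigned by an overlap of 1 bp. Regions, classes, places (coding TSS within 1 kb called promoter) and motif matches were computed with Python 3.11.15, numpy 2.4.6, pandas 2.3.3, scipy 1.17.1, pysam 0.24.0 and samtools 1.23.1, on GRCm38 with its annotation. The statistics were tested on simulated data first. In 6 GATA6 lists the sample named in the peaks differs in time from the record, and the former was used. Trends were tested over 6 lists by exact permutation (90 arrangements) and differences between classes by exact sign flips (64 patterns), two-sided, with Benjamini-Hochberg adjustment over 7 tests. The p-values measure only the spread between these lists, which may be technical, and the sites of a list are not replicates. Depth is the background coverage that could be worked out from the deposited fold and p-values, and it covers counting error only. For GATA6 at 0 h it rests on few matched values and is uncertain, and for GATA4 it could not be used.

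The sites, gene lists and tests were chosen with earlier results of these data known. Sites named in the text are the 2 with the highest mean fold in each of 7 readouts, and for each listed gene within 50 kb the site with the highest GATA6 2 h fold, for at most 30 genes and outside chromosome 18. Some sites that this rule names are not reported here. The sequences of nearest motif matches, the 200 bp window, the GC bins and the comparison without promoters were chosen after the data were seen.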

Additional observations from a re-analysis of the deposited data

Results flagged for a closer look

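The difference in GATA6 between SOX2 only and unoccupied sites had a different sign at different times. At 4 h it was 5.09 and 5.67 percentage points in replicates 1 and 2, at 8 h −5.92 and −1.72, and at 48 h −1.87 and −0.0276. The mean at 4 h was thus 9.2 points above that at 8 h and 6.33 points above that at 48 h. Both lists of 4 h went one way and both lists of each later time the other, and the difference between times was not tested. Within 5 bins of GATA6 2 h fold the values were 2.00 and 2.88 at 4 h, −8.69 and −4.50 at 8 h and −2.33 and −0.582 at 48 h. The times are those named in the peaks, and by the record the lists named 48, 4 and 8 h are those of 4, 8 and 48 h.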

How the results depend on the processing

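Values are percentage points. Without peaks of −log10 q under 5 there were 2471 sites, NANOG against unoccupied sites was 6.57 (exact sign-flip p = 0.156), GATA6 against unoccupied sites −2.43 and GATA6 against NANOG and SOX2 sites −4.48 (exact p = 0.0625). With the same number of peaks in every list (2255 for NANOG, 11540 for SOX2 and 5933 for GATA6) the NANOG trend was 0.641, the SOX2 trend 4.95, NANOG against unoccupied sites −0.169 and GATA6 against unoccupied sites −3.79. Within bins of GATA6 2 h fold SOX2 against NANOG and SOX2 sites was −4.22, GATA6 against unoccupied sites −1.87 and GATA6 against NANOG and SOX2 sites 9.13. GATA6 against unoccupied sites was also −0.939 within 100 bp of the summit, 10.4 with regions of either GATA6 2 h list (exact sign-flip p = 0.0312, as with the equal lists) and −0.590 without promoters, where GATA6 against NANOG and SOX2 sites was −4.66 and lost its call (exact p = 0.0625). By the record the GATA6 trend was 35.4. The cause was not tested for any of these.

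With the replicate numbers as a block the NANOG trend stayed at −53.6 and the GATA6 trend at −68.4, both with an exact permutation p of 0.0556, the smallest that 36 arrangements allow. The numbers mark no shared culture in the labels, and the block changed no other call.

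Leaving out 1 list gave −67.0 to −40.3 for the NANOG trend, −42.2 to −17.5 for the SOX2 trend, −71.7 to −56.5 for the GATA6 trend, 5.17 to 12.5 for NANOG against unoccupied sites, −23.8 to −12.3 for SOX2 against NANOG and SOX2 sites, −1.51 to 8.86 for GATA6 against unoccupied sites and −11.1 to −4.14 for GATA6 against NANOG and SOX2 sites. With 5 readout lists no p under 0.0625 (sign flips) or 0.0667 (trend) can be reached in an exact test, so those p-values say nothing of stability. Without NANOG 0 h replicate 2 all 6 readout lists remained, and GATA6 against NANOG and SOX2 sites lost its call at −4.14 (exact sign-flip p = 0.0625). The number of sites ranged from 4277 to 6541, with 6541 without SOX2 0 h replicate 2 and 5990 without NANOG 0 h replicate 2.

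The share of sites with a GATA match was 15.1% within 50 bp and 57.6% within 200 bp of the summit, and that with a SOX core match 17.9% and 51.9%. Background coverage of the SOX2 libraries, 0.290 to 0.693 fragments per base, limits what can be said of weak SOX2 peaks.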

Other observations

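The 163 SOX2 only sites with GATA6 in both 48 h lists held SOX17 at 96.3% and 99.4% and GATA4 at 71.2% and 60.7% in replicates 1 and 2. SOX2 at 8 h was found at 80.4% and 79.8% of them. Their regions were wider, with a median of 1171 bp against 714 bp for the 3462 sites with GATA6 in neither 48 h list, and the part of width in these shares was not tested.

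The window printed for the Mast3 site holds TTGCNAGG 3 times. This was noticed in the printed sequence, and the letters were then searched within 100 bp of all GATA6 2 h summits on both strands. They were found at 3.10% of SOX2 only sites, 2.82% of NANOG and SOX2 sites, 2.61% of unoccupied sites and 2.71% of all regions, so the repeat belongs to that site and not to the set.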
